A study of Mus musculus with 20 samples.

Results

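The 10 genes described here, Cxcl12, Kitl, Adipoq, Lpl, Igfbp5, Chrdl1, Pdgfra, Pdgfrb, Kcnj8 and Ebf3, are known as markers of the Lepr-bearing stroma and the mural cells of mouse bone marrow. They were picked by name, with results of these libraries known, from the 55573 genes counted. RNA had been sequenced from marrow stem and progenitor cells of C57BL/6 mice aged 7 to 9 weeks, with 2 mice pooled per sample and 1000 to 8000 cells sorted. No gene was altered and no treatment given. There were 4 groups of 5 libraries: Lepr+ multipotent progenitors (MPP), Lepr- MPP, Lepr+ hematopoietic stem cells (HSC) and Lepr- HSC. Lepr+ and Lepr- refer to surface staining with an antibody to the leptin receptor. All cells had been depleted of lineage-bearing cells in part and sorted as lineage-negative, Sca-1+ and c-Kit+ (LSK), with CD150+ CD48- as the HSC gate and CD150- CD48- as the MPP gate. The stains listed for the sort include none for CD45, the pan-blood-cell antigen. The submitters compared cell type and Lepr status, and the choice of members drew on the comparison of Lepr+ with Lepr- MPP, so all values from MPP libraries are given as a description and only the HSC contrast was tested for them.

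In marrow, Lepr marks perivascular stromal cells, which are not blood cells. These cells are the main source of Cxcl12, the chemokine that holds stem cells in place through its receptor Cxcr4, and of Kitl, the ligand of Kit that stem cells need to survive. The same cells carry transcripts usually linked to fat, among them Adipoq and Lpl, as well as the platelet-derived growth factor receptors Pdgfra and Pdgfrb and the transcription factor Ebf3. Kcnj8, the pore of a potassium channel gated by ATP, is best known in pericytes.

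Library depth lay between 9532993 and 31589794 read pairs counted in genes. Levels are given as CPM, read pairs scaled to a common library size, and 3 counts corresponded to 0.087 to 0.337 CPM depending on the library. All 10 members passed the filter on low counts, which left 16509 genes. Mitochondrial genes took 3.03% and 4.46% of the counts in Lepr+ MPP replicates 4 and 5, the highest shares in the series. The gate was visible in the RNA in part: the mean CPM of Kit was 834 ± 408 in Lepr+ MPP, 883 ± 167 in Lepr- MPP, 670 ± 215 in Lepr+ HSC and 562 ± 195 in Lepr- HSC (SD, 5 libraries each). Slamf1, which encodes CD150, averaged 5.03, 5.12, 41.3 and 46.6 CPM in the same order of groups. Cd48 averaged 25.6, 50.6, 10.5 and 14.3 CPM, although both gates were CD48-. Ptprc, which encodes CD45, averaged 167 ± 109, 187 ± 69.1, 126 ± 62.4 and 94.8 ± 45.8 CPM in the same order of groups.

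Lepr itself had 0.261, 27.1, 30.5, 38.8 and 19.7 CPM in Lepr+ MPP replicates 1 to 5, against 0.605, 0, 0, 0.767 and 0 CPM in Lepr- MPP. In HSC it had 0.356, 0.514, 7.98, 0.0759 and 9.36 CPM in the Lepr+ libraries, against 0, 0.059, 0, 0 and 0.165 CPM in the Lepr- libraries. Lepr+ MPP replicate 1 therefore lay below Lepr- MPP replicates 1 and 4, and went against its label for this transcript. The other Lepr+ MPP libraries were above all Lepr- MPP libraries. In HSC the count ratio of Lepr+ over Lepr- was 123 (95% exact interval 41.6 to 597, counting error only), with adjusted p = 0.204 in edgeR's quasi-likelihood test. Staining for the receptor and its transcript are different measurements.

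Promoters are shown for 4 members because most of the members followed each other across libraries and differed widely in base composition at their start sites. The windows run from 250 bases before to 50 bases after the RefSeq start in GRCm38.p6 and were taken from RefSeq; 7 of the 10 members were matched to the table. Capitals mark GGGCGG, known as a GC box and read on both strands, TATAAA, and CCCNNGGG, the core of the motif that early B cell factors bind.
Cxcl12, chr6:117168285-117168584, plus strand: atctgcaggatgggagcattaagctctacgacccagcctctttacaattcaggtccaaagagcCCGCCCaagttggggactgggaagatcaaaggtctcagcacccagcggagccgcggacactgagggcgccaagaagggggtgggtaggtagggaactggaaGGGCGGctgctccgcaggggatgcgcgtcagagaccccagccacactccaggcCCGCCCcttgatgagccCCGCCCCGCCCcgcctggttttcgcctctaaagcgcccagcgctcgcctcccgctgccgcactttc
Kitl, chr10:100015571-100015870, plus strand: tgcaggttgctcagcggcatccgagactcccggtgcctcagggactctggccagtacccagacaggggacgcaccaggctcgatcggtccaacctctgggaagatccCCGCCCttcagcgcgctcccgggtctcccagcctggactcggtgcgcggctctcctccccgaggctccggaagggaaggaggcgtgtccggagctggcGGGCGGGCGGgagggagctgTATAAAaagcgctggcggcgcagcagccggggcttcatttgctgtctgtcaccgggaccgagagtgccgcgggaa
Adipoq, chr16:23146286-23146585, plus strand: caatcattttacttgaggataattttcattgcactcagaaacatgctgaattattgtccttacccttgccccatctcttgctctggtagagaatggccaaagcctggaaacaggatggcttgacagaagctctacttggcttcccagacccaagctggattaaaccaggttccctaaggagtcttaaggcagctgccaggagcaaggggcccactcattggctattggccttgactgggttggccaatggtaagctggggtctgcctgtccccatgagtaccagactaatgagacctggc
Ebf3, chr7:137314396-137314695, minus strand: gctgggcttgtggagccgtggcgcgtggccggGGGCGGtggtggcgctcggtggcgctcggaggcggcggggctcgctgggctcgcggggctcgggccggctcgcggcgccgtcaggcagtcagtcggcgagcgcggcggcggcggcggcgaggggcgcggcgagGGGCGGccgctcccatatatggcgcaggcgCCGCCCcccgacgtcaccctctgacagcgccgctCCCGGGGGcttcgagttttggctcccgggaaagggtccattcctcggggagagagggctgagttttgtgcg

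The Cxcl12 window held 5 GC boxes and the windows of Kitl and Ebf3 held 3 each, with 2 boxes overlapping in each of Cxcl12 and Kitl. A GC box was present in 35.7% of all 32851 windows in the table. Kitl also held 1 TATAAA, found in 13.6% of windows, and Ebf3 held 1 CCCNNGGG, found in 13.7%. The Adipoq window contained none of these letters and no CpG, whereas that of Ebf3 contained 46 CpG at 77.0% GC, against medians of 7 CpG and 52.7% GC over all windows. The forkhead word TGTTTAC (3.65% of windows), searched on both strands, was in none of the 7 members' windows. These are matches of letters, not measured sites.

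Across the series, 77.0% of all read pairs of the 10 members came from Lepr+ MPP, and 9 of the 10 had their highest group mean there; Pdgfrb was the exception. Summed over the 10 members, Lepr+ MPP replicates 1 to 5 had 28.7, 563, 609, 805 and 519 CPM, against 32.9, 63.4, 61.1, 32.5 and 43.8 CPM in Lepr- MPP. Lepr+ HSC had 21.5, 79.8, 119, 20.4 and 48.8 CPM, against 21.8, 2.71, 27.4, 1.29 and 17.3 CPM in Lepr- HSC. Lepr+ MPP replicates 2 to 5 formed the high end, and replicate 1 of that group lay among the other libraries. It was the lowest of its group for 10 of 10 members although it held 25959781 read pairs. In bulk libraries, fewer cells of a type and less RNA per cell cannot be told apart.

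**Figure D1:**
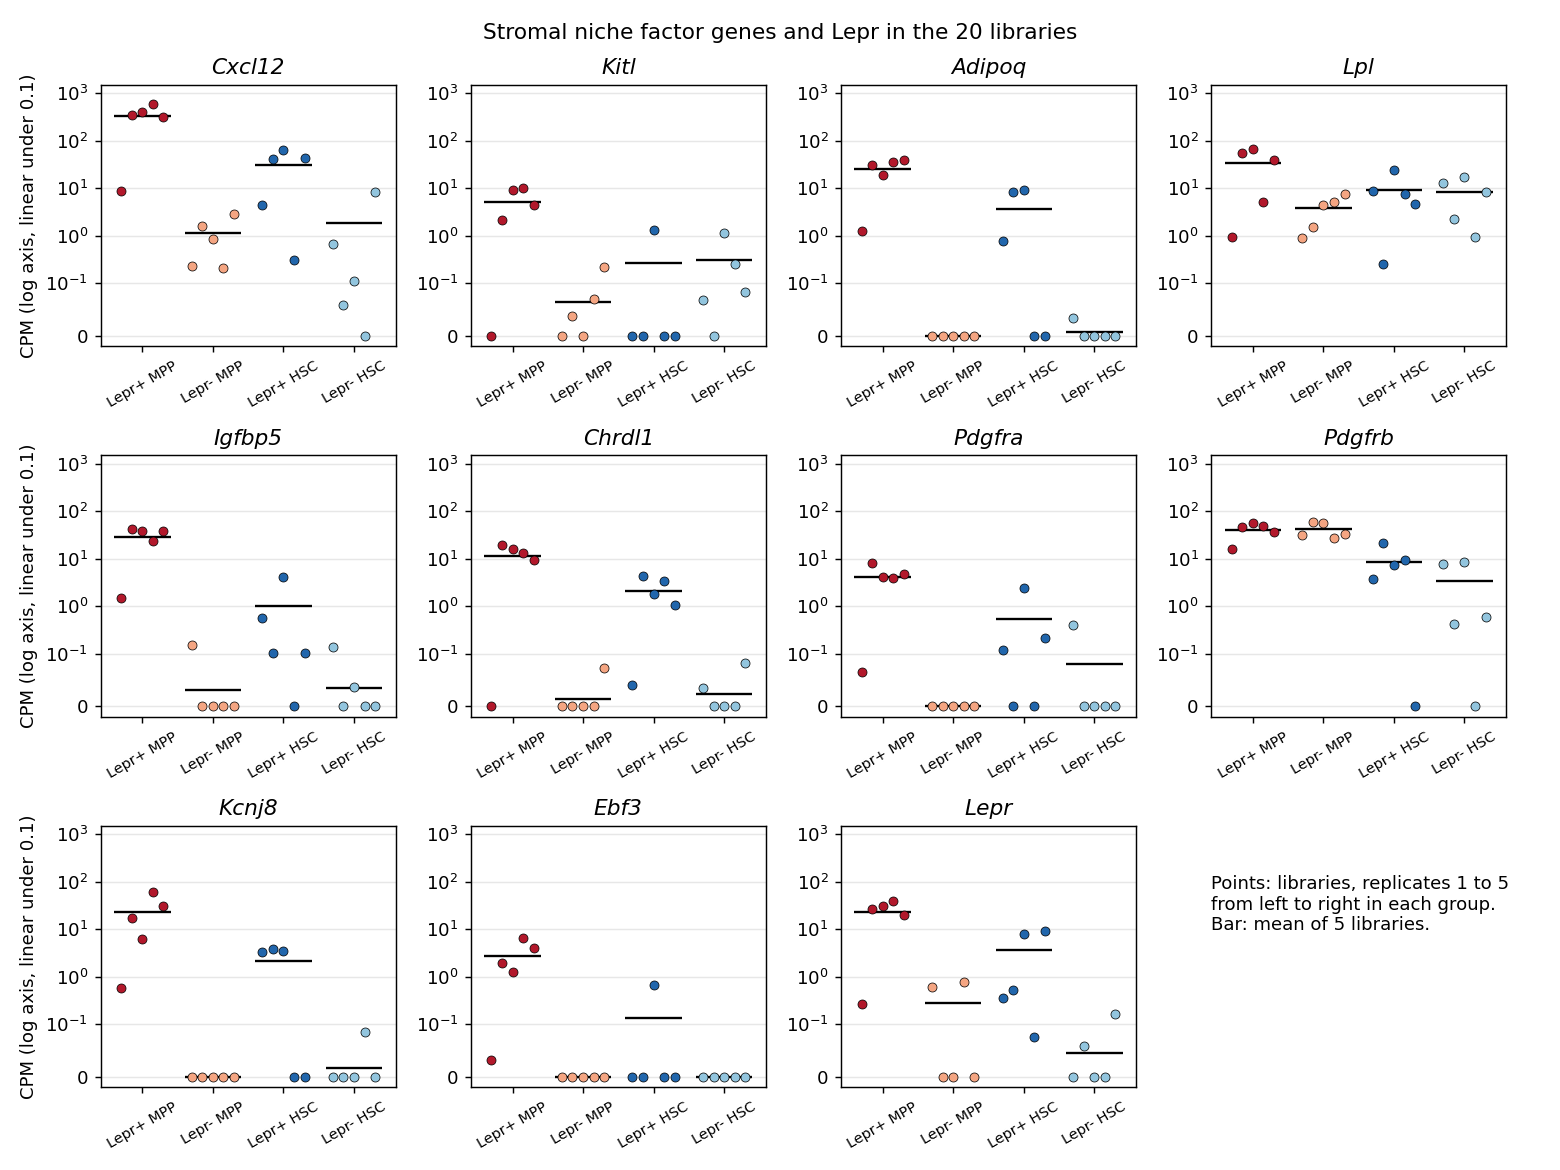
CPM of the 10 genes and of Lepr in each library (vertical axis, logarithmic above 0.1 and linear below), by group, with a bar at the mean of 5 libraries. Replicate 1 is the lowest of the Lepr+ MPP libraries for each of the 10 genes, and Pdgfrb is the 1 gene that stands as high in Lepr- MPP (41.6 CPM on average) as in Lepr+ MPP (40.7 CPM).

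Cxcl12 (chr6:117168535-117181367, GRCm38, plus strand) is the chemokine of the set. It had 8.64, 342, 394, 598 and 311 CPM in Lepr+ MPP replicates 1 to 5, against 0.227, 1.59, 0.849, 0.209 and 2.89 CPM in Lepr- MPP. The lowest Lepr+ library exceeded the highest Lepr- library, and the fitted log2 fold change was 8.19 ± 1.57 (SE). In HSC it had 4.43, 41.9, 64.5, 0.304 and 42.7 CPM in the Lepr+ libraries, against 0.675, 0.059, 0.111, 0 and 8.16 CPM in the Lepr- libraries. Every Lepr+ HSC library was above the Lepr- library of the same replicate number, but the groups overlapped, with low values in Lepr+ replicates 1 and 4 and a high one in Lepr- replicate 5. The HSC difference was 4.18 ± 1.33 on the log2 scale and did not pass the threshold (adjusted p = 0.333 in edgeR). Without Lepr- HSC replicate 5 it was 6.90, also without a call. Lepr+ MPP held 88.8% of all Cxcl12 read pairs of the series.

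Kitl lies at chr10:100015630-100100416 on the plus strand. Lepr+ MPP replicates 1 to 5 had 0, 2.1, 8.94, 9.89 and 4.5 CPM, against 0, 0.0379, 0, 0.0697 and 0.216 CPM in Lepr- MPP. Replicate 1 had no Kitl read pair, and the other 4 libraries were above all Lepr- MPP libraries. In total 474 Kitl read pairs were counted in Lepr+ MPP and 5 in Lepr- MPP, a log2 fold change of 6.32 ± 1.99. In HSC the counts were 46 in Lepr+ and 37 in Lepr- libraries. All 46 in Lepr+ HSC came from replicate 3 (1.33 CPM), and 31 of the 37 in Lepr- HSC also came from replicate 3 (1.14 CPM), with a log2 fold change of -0.16 ± 1.57 (adjusted p = 1.0). The sign of that small difference depended on single libraries.

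Adipoq (chr16:23146536-23158028, plus strand) encodes the hormone adiponectin. It had 1.24, 30.1, 19.1, 35.7 and 39.1 CPM in Lepr+ MPP and no read pair in any Lepr- MPP library. With 2131 read pairs against 0, it was at least 745-fold higher in Lepr+ MPP, taking 3 counts over the Lepr- group as the floor. In Lepr+ HSC it had 0.752, 8.27, 8.99, 0 and 0 CPM, against 0.0338, 0, 0, 0 and 0 CPM in Lepr- HSC. The first 3 libraries therefore carried the 490 read pairs of Lepr+ HSC, and Lepr- HSC had 1 read pair. The ratio of counts scaled for depth was 469 (95% exact interval 83.8 to 18600, counting error only), with adjusted p = 0.115 in edgeR.

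Lpl (chr8:68880491-68907448, plus strand), lipoprotein lipase, frees fatty acids from lipoproteins and followed another pattern. It had 0.946, 55.6, 65.9, 5.05 and 39.9 CPM in Lepr+ MPP, against 0.87, 1.52, 4.31, 5.16 and 7.5 CPM in Lepr- MPP. Lepr+ replicates 2, 3 and 5 stood above all Lepr- libraries, while replicate 4, the highest for Cxcl12, lay within their range. In HSC the values overlapped throughout, with 8.63, 0.257, 24.3, 7.44 and 4.73 CPM in Lepr+ and 12.6, 2.24, 17.6, 0.942 and 8.4 CPM in Lepr- libraries. The log2 fold change was 3.12 ± 1.07 in MPP and 0.12 ± 0.99 in HSC (adjusted p = 1.0). Every Lepr- HSC library held Lpl read pairs. Per kilobase of exon, Lpl averaged 0.798 CPM in Lepr- HSC.

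Igfbp5 (chr1:72857932-72874884, minus strand) is a secreted binding protein of insulin-like growth factors. It had 1.47, 41.3, 38.2, 23.3 and 38.9 CPM in Lepr+ MPP, against 0.151, 0, 0, 0 and 0 CPM in Lepr- MPP. The groups did not overlap, and the log2 fold change was 9.48 ± 1.62. Lepr- MPP replicate 1 held all 4 read pairs of its group, and the fitted value without it was 12.21, which then rests on a group at 0. In HSC it had 0.554, 0.103, 4.18, 0 and 0.105 CPM in the Lepr+ libraries, against 0.135, 0, 0.0368, 0 and 0 CPM in the Lepr- libraries. Replicate 3 held 144 of the 161 read pairs in Lepr+ HSC, and the difference of 4.36 ± 1.38 on the log2 scale had an adjusted p = 0.332 in edgeR. Without that library the difference was 2.08.

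Chrdl1 (chrX:143285674-143394262, minus strand) is a secreted antagonist of bone morphogenetic proteins. It had 0, 19.1, 16.0, 12.9 and 9.45 CPM in Lepr+ MPP, against 0, 0, 0, 0 and 0.0722 CPM in Lepr- MPP. In Lepr+ HSC it had 0.0396, 4.21, 1.77, 3.41 and 1.05 CPM, against 0.0338, 0, 0, 0 and 0.0824 CPM in Lepr- HSC. Replicate 1 had 1 read pair in each of the HSC groups, and for the other 4 replicate numbers the Lepr+ library was higher. Chrdl1 was present in Lepr+ HSC replicate 4, where Lepr had a single read pair. The count ratio in HSC was 95.2 (95% exact interval 26 to 792), with adjusted p = 0.126 in edgeR.

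Pdgfra (chr5:75152292-75198215, plus strand) is a growth factor receptor that marks mesenchymal cells. It had 0.0652, 7.95, 4.04, 3.96 and 4.72 CPM in Lepr+ MPP and 0 in all Lepr- MPP libraries. It was at least 148-fold higher there, from 422 read pairs against 0. Of the 86 read pairs in Lepr+ HSC, 81 lay in replicate 3 (2.35 CPM), and all 12 in Lepr- HSC lay in replicate 1 (0.405 CPM). The HSC log2 fold change was 2.52 ± 1.63 (adjusted p = 0.943) and was -0.20 without Lepr+ HSC replicate 3. Pdgfra overlaps antisense genes on the other strand, and reads of these unstranded libraries cannot be told apart by strand.

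Pdgfrb, the receptor that marks pericytes and much of the stroma, did not follow the other members. It had 15.7, 45.8, 55.9, 49.9 and 36.1 CPM in Lepr+ MPP, against 31.6, 60.3, 56.0, 27.1 and 33.1 CPM in Lepr- MPP. The groups overlapped almost fully, with a log2 fold change of -0.03 ± 0.95. In HSC it had 3.76, 21.3, 7.43, 9.26 and 0 CPM in Lepr+ libraries, against 7.87, 0.413, 8.44, 0 and 0.577 CPM in Lepr- libraries, a difference of 1.25 ± 0.97 on the log2 scale (adjusted p = 0.998). Lepr- MPP held 47.2% of all Pdgfrb read pairs of the series. Per kilobase of exon it averaged 7.43 CPM in Lepr+ MPP, against 7.6 CPM in Lepr- MPP, where Cxcl12 averaged 0.141 CPM.

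Kcnj8 (chr6:142564837-142571614, minus strand) had 0.587, 16.9, 6.18, 59.8 and 30.9 CPM in Lepr+ MPP and 0 in all Lepr- MPP libraries, at least 520-fold higher in Lepr+ MPP from 1488 read pairs. In Lepr+ HSC it had 3.24, 3.8, 3.51, 0 and 0 CPM, against 0, 0, 0, 0.0857 and 0 CPM in Lepr- HSC. The 3 libraries with Kcnj8 were the 3 with Adipoq, and the count ratio was 265 (95% exact interval 47.2 to 10500, adjusted p = 0.173 in edgeR).

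Ebf3 (chr7:137193673-137314445, minus strand) is a transcription factor known to keep stromal cells from turning into bone. It had 0.0326, 1.91, 1.27, 6.59 and 3.94 CPM in Lepr+ MPP and 0 in all Lepr- MPP libraries. That was at least 65.7-fold higher, from 188 read pairs. In HSC its 23 read pairs lay in Lepr+ replicate 3 (0.667 CPM), at least 7.34-fold higher over the group, with adjusted p = 0.655 in edgeR. Ebf3 also overlaps antisense genes, with the same limit as Pdgfra.

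In MPP, 6 of the 10 members had every Lepr+ library above every Lepr- library: Cxcl12, Adipoq, Igfbp5, Pdgfra, Kcnj8 and Ebf3. Over all genes tested, 1.19% were apart in that direction. Nothing is read from that comparison, since this contrast entered the choice of members. The separation of Ebf3 and Pdgfra in replicate 1 rested on 1 and 2 read pairs. Without that library 8 members were apart, Kitl and Chrdl1 being the further ones, and so were 2.09% of all genes. The median fitted log2 fold change of the members was 9.14, or 7.70 with 4 genes at the bound that a count of 0 allows and Chrdl1 at its count ratio, beside a median of 0.01 for all genes tested.

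In HSC, edgeR called 0 of the 10 members at an adjusted p of 0.05, where 0.103% of all genes were called in either direction. At an unadjusted p of 0.05, 6 members passed (Adipoq, Chrdl1, Kcnj8, Igfbp5, Cxcl12 and Ebf3), all higher in Lepr+ HSC, where 4.73% of all genes passed in that direction. DESeq2 called 3 of them as higher, Adipoq, Chrdl1 and Kcnj8, with 0.909% of all genes called higher, and limma voom called 0, with 0.0727% of all genes called higher. With the replicate number as a block, edgeR also called 0 members, with 0.763% of all genes called higher. None of the members had groups apart, where 0.999% of all genes had. The median fitted log2 fold change was 4.27, or 3.53 with Ebf3 at its bound and 3 genes at their count ratios. Results on the HSC libraries were also known when the members were chosen. Adipoq, Chrdl1, Kcnj8, Igfbp5 and Ebf3 had at most 5 read pairs in each Lepr- group and passed the filter on low counts through Lepr+ libraries. The Ebf3 value rested on 23 read pairs in 1 library. Nothing is therefore read from these counts of members beside the shares of all genes.

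**Figure D2:**
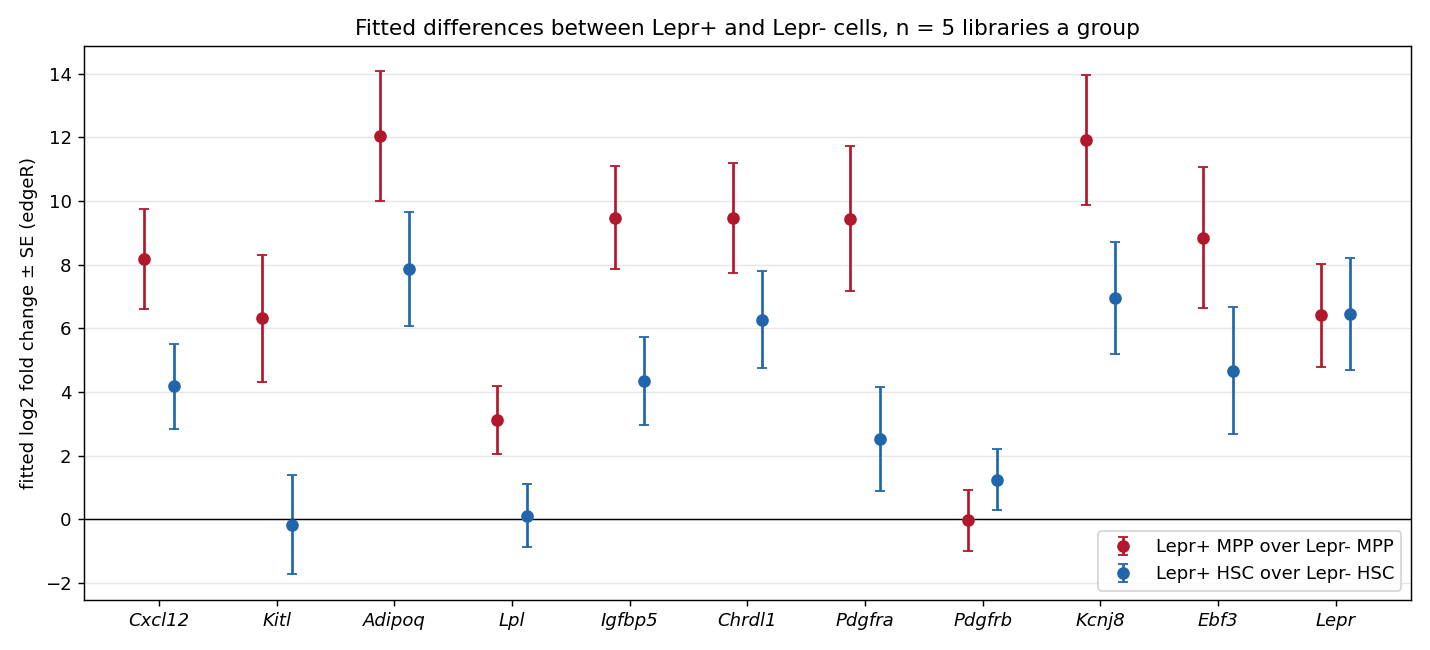
Fitted log2 fold change with its SE (edgeR) for the 10 genes and Lepr, Lepr+ MPP over Lepr- MPP in red and Lepr+ HSC over Lepr- HSC in blue, n = 5 libraries a group. Pdgfrb in MPP (-0.03), Kitl in HSC (-0.16) and Lpl in HSC (0.12) lie at 0. Values of genes with no count in the Lepr- group depend on the fit and are not bounds.

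Among Lepr+ cells, 10 of 10 members had a positive fitted log2 fold change of MPP over HSC, from 1.88 ± 1.02 for Lpl to 4.8 ± 1.26 for Igfbp5, with 3.43 ± 1.24 for Cxcl12. None had groups apart, where 1.02% of all genes had, and Lepr+ MPP replicate 1 lay below the highest Lepr+ HSC library for each member. Without that library 9 were apart, Lpl being the exception, and so were 1.78% of all genes. Among Lepr- cells, Pdgfrb alone had groups apart, where 3.43% of all genes had, with 5052 read pairs in Lepr- MPP and 476 in Lepr- HSC and a log2 fold change of 3.56 ± 1.05. In all of Lepr- MPP, Cxcl12 had 118 read pairs and Lpl 378, and the other 7 members had at most 5 each.

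Levels of different genes were ranked per kilobase of exon. In Lepr+ MPP the order was Cxcl12 with 40.5 ± 25.9 CPM per kb, Adipoq with 18.2 ± 11.1, Kcnj8 with 8.98 ± 9.28, Pdgfrb with 7.43 ± 2.87 and Igfbp5 with 4.77 ± 2.79 (SD, n = 5). Lepr (3.3 ± 2.07) and Lpl (3.2 ± 2.8) came next. Chrdl1 (1.7 ± 1.09), Kitl (0.86 ± 0.723), Pdgfra (0.414 ± 0.28) and Ebf3 (0.298 ± 0.279) were lowest on this scale. Each pair of neighbours in that order differed by less than the larger SD of the pair.

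Read library by library, most members appeared where Lepr did, but not in constant proportion. Lepr had 8, 723, 982, 353 and 175 read pairs in Lepr+ MPP replicates 1 to 5. In the 4 libraries with over 100 Lepr read pairs, Cxcl12 had 12.6, 12.9, 15.4 and 15.8 read pairs for each one of Lepr, a range of 1.25-fold. The corresponding range was 1.42-fold for Pdgfrb, 2.13-fold for Chrdl1, 2.87-fold for Pdgfra, 3.17-fold for Adipoq, 3.29-fold for Igfbp5, 3.78-fold for Kitl, 4.78-fold for Ebf3, 7.73-fold for Kcnj8 and 16.6-fold for Lpl. The wide Lpl range came from replicate 4 with 0.13 (95% exact interval 0.0937 to 0.178), against 2.03 to 2.16 in the other 3. In replicate 1, with 8 Lepr read pairs, this ratio was 33.1 (16.6 to 77.5) for Cxcl12 and 60.1 (30.3 to 140) for Pdgfrb. These intervals cover counting error only. Pdgfrb also had 1590, 1779 and 459 read pairs in Lepr- MPP replicates 2, 3 and 5, which had no Lepr read pair. A narrow range over 4 libraries is therefore no measure of whether a gene follows Lepr.

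Lepr+ HSC differed in this respect. Cxcl12 had 12.4, 81.5, 8.09, 4.0 and 4.56 read pairs per Lepr read pair in replicates 1 to 5, with 9, 10, 275, 1 and 89 Lepr read pairs behind them. The value of 81.5 in replicate 2 (95% exact interval 44.1 to 171) lay above that of each Lepr+ MPP library with over 100 Lepr read pairs. Replicate 5 had 89 Lepr and 406 Cxcl12 read pairs but none of Adipoq, Kcnj8, Kitl, Pdgfrb or Ebf3, so each was at most 0.0423 per Lepr read pair by the exact interval. Replicate 3 was the 1 HSC library with read pairs of 10 of 10 members. In Lepr- MPP replicates 1 and 4, with 16 and 11 Lepr read pairs, Cxcl12 had only 6 and 3, and Adipoq, Kcnj8, Pdgfra and Ebf3 had none.

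**Figure D3:**
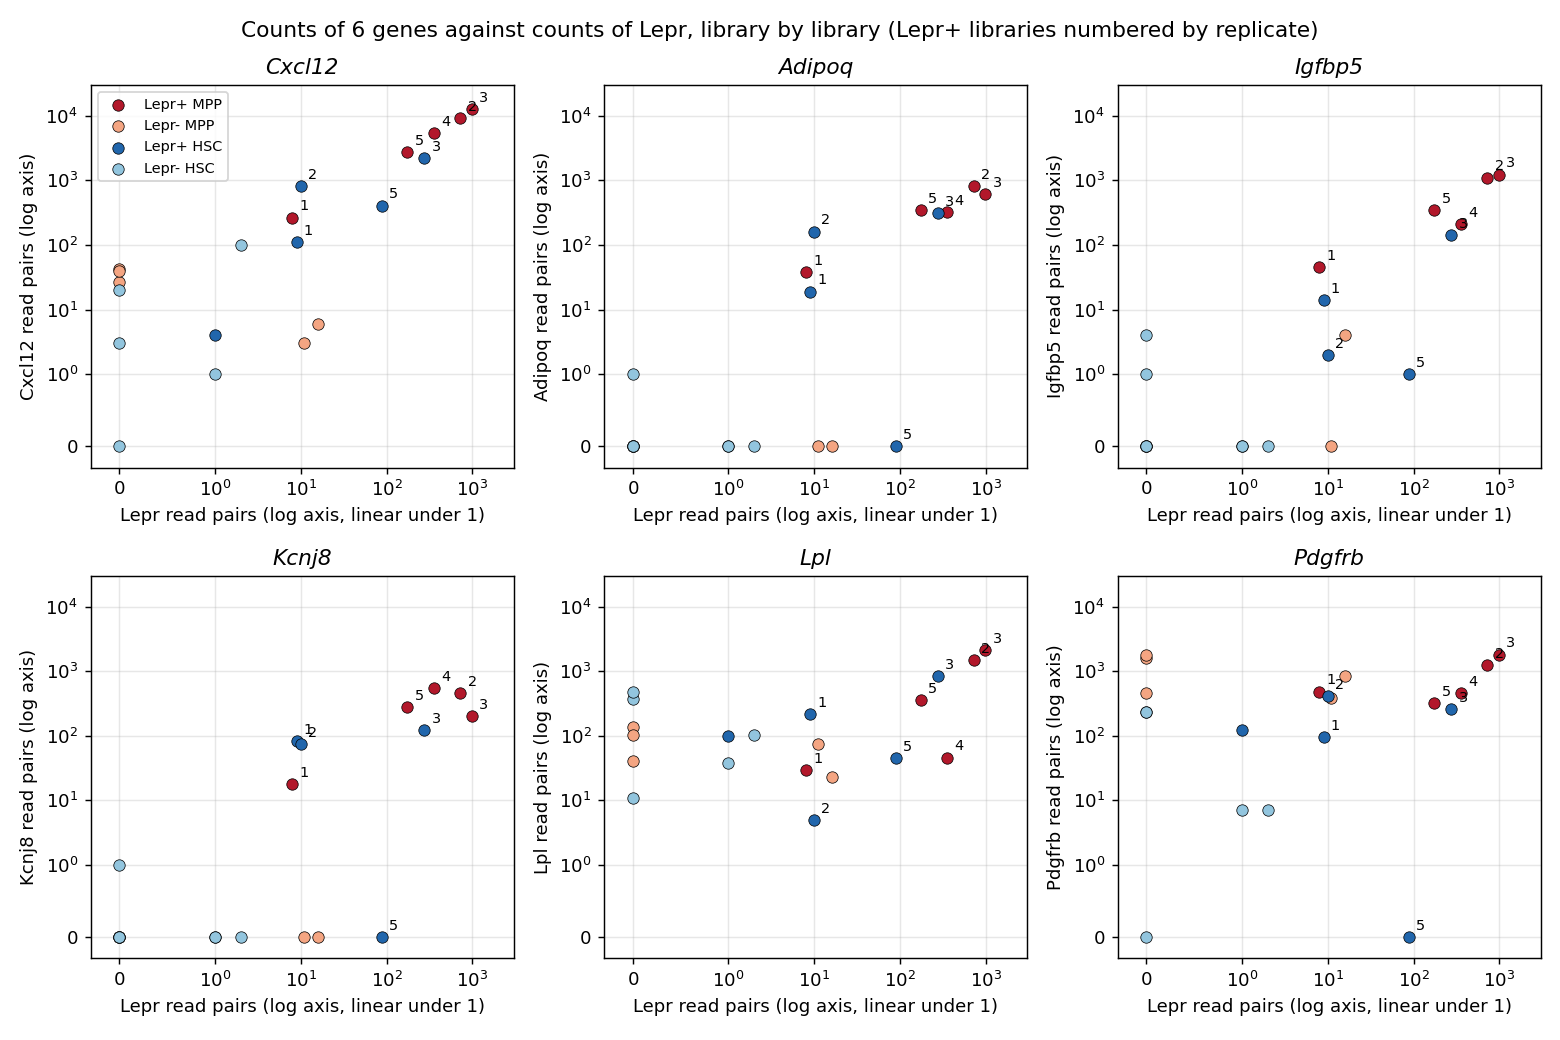
Read pairs of 6 genes (vertical axis) against read pairs of Lepr (horizontal axis), both logarithmic above 1 and linear below, 1 point for each of the 20 libraries, Lepr+ libraries numbered by replicate. Cxcl12 has 12.6 to 15.8 read pairs per Lepr read pair in Lepr+ MPP replicates 2 to 5, and 33.1 in replicate 1. Adipoq and Kcnj8 are at 0 in Lepr+ HSC replicate 5, and Pdgfrb is high in Lepr- MPP libraries with no Lepr.

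**Figure D4:**
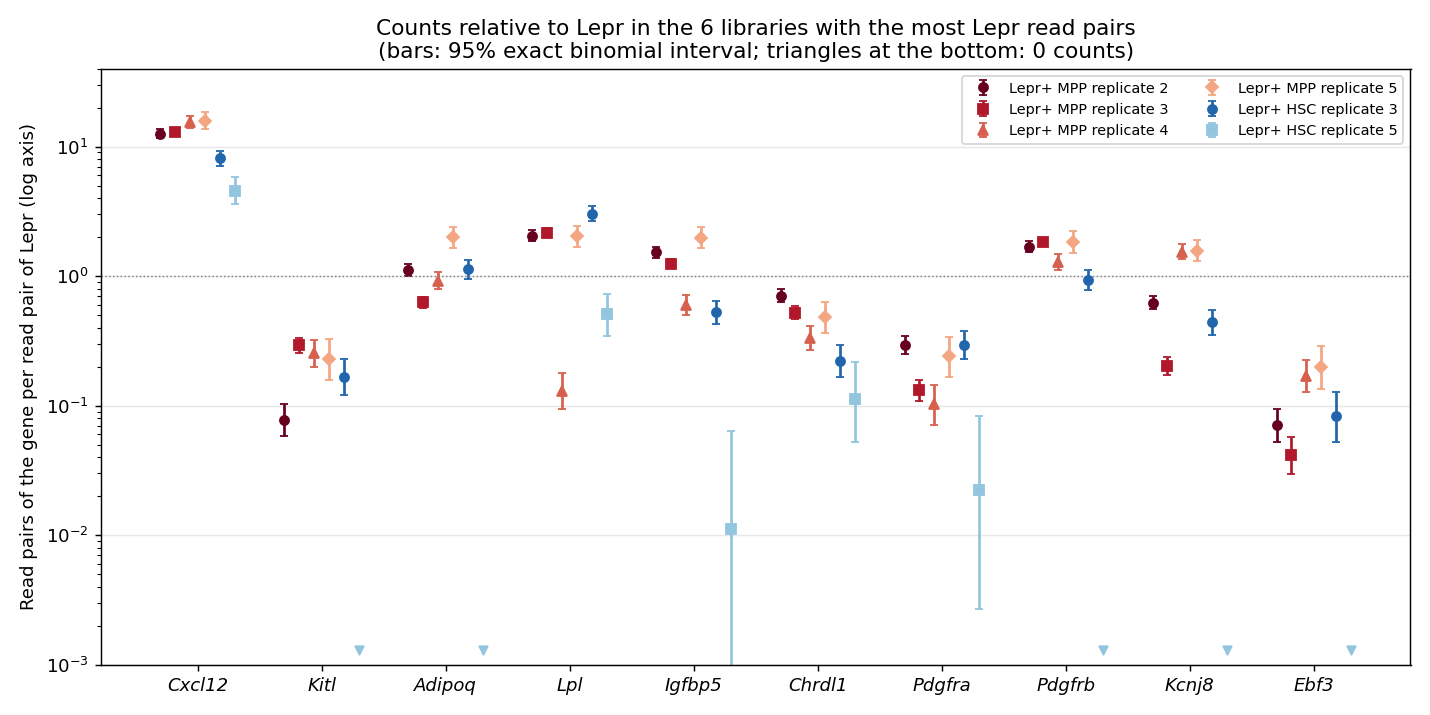
Read pairs of each gene per read pair of Lepr (logarithmic axis) in the 6 libraries with the most Lepr read pairs, with 95% exact binomial intervals and triangles at the bottom for 0 counts. Cxcl12 keeps to 12.6 to 15.8 in the 4 Lepr+ MPP libraries and is lower in the 2 HSC libraries, and Lpl is 0.13 in Lepr+ MPP replicate 4.

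Over the 20 libraries the log2 CPM of each member was set against the mean of the other 9. Pearson's r was 0.952 for Igfbp5, 0.941 for Ebf3, 0.934 for Adipoq, 0.929 for Pdgfra, 0.903 for Kcnj8, 0.861 for Cxcl12, 0.835 for Chrdl1 and 0.82 for Kitl. It was 0.544 for Lpl and 0.382 for Pdgfrb, and 0.874 for Lepr against the mean of all 10. The genes of named type most like the members' mean were Cyp1b1 and Esm1 (0.957 each), Dpep1 (0.952), Ccn2 (0.95), Tnc (0.947), Cxcl14 (0.945), Fbln5 (0.941), Col6a3 (0.935), Aplnr (0.932) and Rarres2 (0.931). Of these, Esm1 is an endothelial gene and Tnc, Fbln5 and Col6a3 encode matrix proteins. All these values share the same libraries, which fall into a few high ones and many near 0, so they are given without a p-value. Mean CPM of Fbln5 was 38 ± 48.0 in Lepr+ MPP and 2.8 ± 3.41 in Lepr+ HSC, against 0 in both Lepr- groups.

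The partners of these factors were read next, as 50 ligands, receptors and cofactors, of which 33 were tested. None was called by edgeR in either contrast at an adjusted p of 0.05. Of all genes, edgeR called 0.176% higher in Lepr+ MPP and 0.0969% higher in Lepr+ HSC. DESeq2 called 6 of the 33 in MPP and 1 in HSC, all higher in Lepr+ cells, with 1.2% and 0.909% of all genes called higher. Limma voom called 4 in MPP and 0 in HSC, with 0.303% of all genes called higher in MPP. Of the receptors that answer the secreted members, Cxcr4, Kit, Adipor1 and Adipor2 were present in all 4 groups. Ackr3, which also binds Cxcl12, had 96 and 17 read pairs in Lepr+ and Lepr- MPP, and 30 and 1 in Lepr+ and Lepr- HSC. Cdh13, a further adiponectin receptor, had 53, 112, 2 and 1 in the same order and did not pass the filter. Cxcr4 averaged 15.4 ± 7.76 CPM in Lepr+ MPP, against 13.0 ± 2.68 CPM in Lepr- MPP (log2 fold change 0.24 ± 0.42, adjusted p = 1.0). In HSC it averaged 15.0 ± 6.52 CPM in Lepr+ libraries, against 18.6 ± 9.53 CPM in Lepr- libraries (log2 fold change -0.32 ± 0.42, adjusted p = 1.0). Kit differed by -0.08 ± 0.32 in MPP and 0.25 ± 0.32 in HSC on the log2 scale. The adiponectin receptors Adipor1 (209 ± 77.7 CPM in Lepr+ MPP, 210 ± 55.3 CPM in Lepr- MPP) and Adipor2 (125 ± 37.7 CPM in Lepr+ MPP, 110 ± 14.6 CPM in Lepr- MPP) each differed by less than the larger SD.

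Further partners are given by value, chosen after their values were seen, and none passed the edgeR threshold. Abcc9, the sulfonylurea receptor subunit that pairs with Kcnj8, had 2.22, 20.4, 3.2, 0.22 and 28 CPM in Lepr+ MPP, against 0, 0, 0, 0.0697 and 0 CPM in Lepr- MPP (adjusted p = 0.0787). Replicate 4, the highest for Kcnj8, was the lowest for Abcc9. Gpihbp1, which anchors Lpl on capillary endothelium, averaged 13.5 ± 15.4 CPM in Lepr+ MPP, against 0.13 ± 0.29 CPM in Lepr- MPP, a log2 fold change of 6.80 ± 1.63 (adjusted p = 0.119). Igfbp7, another growth factor binding protein, averaged 43.6 ± 30.8 CPM in Lepr+ MPP, against 1.33 ± 1.99 CPM in Lepr- MPP (log2 5.00 ± 1.33, adjusted p = 0.178). Ebf1, a relative of Ebf3 also used by B cells, averaged 6.02 ± 6.77 CPM in Lepr+ MPP, against 0.215 ± 0.215 CPM in Lepr- MPP (adjusted p = 0.639). Bmp4, a ligand of the kind Chrdl1 binds, averaged 4.16 ± 5.99 CPM in Lepr+ MPP, against 0.121 ± 0.233 CPM in Lepr- MPP (adjusted p = 0.547). The PDGF ligand Pdgfb averaged 11.2 ± 5.05 CPM in Lepr+ HSC libraries, against 19.6 ± 5.52 CPM in Lepr- HSC (log2 -0.80 ± 0.70, adjusted p = 1.0). The other PDGF ligands went the other way in HSC. Pdgfa averaged 2.58 CPM in Lepr+ against 0.465 CPM in Lepr- HSC, Pdgfc 4.92 against 1.87 CPM, and Pdgfd 11.7 against 7.84 CPM.

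Marker lists of other cells were read in the same libraries, and with the partners they made 147 genes, 99 of them tested. All these lists were written with results on some of their genes known, so their calls are no independent evidence. In MPP edgeR called 7, all higher in Lepr+ MPP, where 0.176% of all genes were called higher. They were the matrix genes Dcn, Col1a2, Col3a1 and Sparc, the bone sialoprotein gene Ibsp, and the endothelial genes Cdh5 and Sox18. Dcn, Col3a1 and Cdh5 had 1, 3 and 2 read pairs in Lepr- MPP, and 94, 1 and 1 in Lepr- HSC. They passed the filter on low counts mainly through Lepr+ libraries, where they were then called higher, so their calls carry no support. In HSC edgeR called 3, all higher in Lepr+ HSC, where 0.0969% of all genes were called higher. They were Gas6, which stroma and stem cells express, and the stem cell genes Hlf and Procr. With the replicate number as a block the counts were 2 in MPP (Dcn and Igkc) and 6 in HSC (the same 3 with Igkc, Ly6a and Mecom), all higher in Lepr+ cells, where 0.0909% and 0.763% of all genes were called higher. The MPP count was 0 without any one of Lepr+ replicates 2 and 5 or Lepr- replicates 1 to 4, 2 without Lepr+ replicate 3 or Lepr- replicate 5, and 3 without Lepr+ replicate 4. The HSC count was 0 without any one of Lepr+ replicate 5 and Lepr- replicates 2 and 3, and 1 without Lepr- replicate 5. The difference between the Lepr contrasts in MPP and HSC was called for 0 of the 99 by edgeR, and for 0.0% of all genes.

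The marker lists of other cells are given as summed CPM from the lowest to the highest library. Endothelial markers (10 of 10 tested) ranged from 203 to 608 in Lepr+ MPP, against 56.9 to 232 in Lepr- MPP, and from 105 to 310 in Lepr+ HSC, against 99.3 to 201 in Lepr- HSC. Matrix genes (8 of 8 tested) ranged from 131 to 2080 in Lepr+ MPP, against 14.6 to 36 in Lepr- MPP, and from 40.4 to 117 in Lepr+ HSC, against 14.2 to 133 in Lepr- HSC. Bone-forming markers (6 of 8 tested) ranged from 158 to 2680 in Lepr+ MPP, against 70.0 to 148 in Lepr- MPP, and from 52.2 to 114 in Lepr+ HSC, against 28.8 to 170 in Lepr- HSC, with Col1a1 at 1830 CPM in Lepr+ MPP replicate 5. B and plasma cell markers ranged from 66.8 to 4460 in Lepr+ MPP, against 56.4 to 85.8 in Lepr- MPP, and from 51.0 to 590 in Lepr+ HSC, against 42.4 to 105 in Lepr- HSC. Igkc stood at 3550 CPM in Lepr+ MPP replicate 4 while the B cell gene Ms4a1 averaged 0.0975 CPM in that group. Macrophage markers ranged from 36 to 206 in Lepr+ MPP, 28.3 to 75.5 in Lepr- MPP, 27.5 to 120 in Lepr+ HSC and 29.3 to 107 in Lepr- HSC, and red cell markers from 8.09 to 118 in Lepr+ MPP, 46.4 to 237 in Lepr- MPP, 44.3 to 125 in Lepr+ HSC and 85.3 to 204 in Lepr- HSC. Their part in the members' levels was not tested.

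Lists closest to the members' usual sources were uneven. Of the 10 further markers of Lepr stroma, edgeR called Gas6 in HSC and no other. Foxc1, Hp, Snai2 and Vcam1 were higher on average in Lepr+ MPP (11.6, 52.8, 3.45 and 77.6 CPM) than in Lepr- MPP (0.0745, 1.27, 0 and 14.9 CPM). They did not pass the threshold in edgeR. DESeq2 called all 4 and limma voom called Snai2, where 1.2% and 0.303% of all genes were called higher in Lepr+ MPP. Prrx1, Csf1 and Gas6 were also higher on average in Lepr+ MPP. Angpt1 (281 against 260 CPM) and Il7 (5.94 against 4.8 CPM) differed little, and Nt5e was lower (0.483 against 1.52 CPM). The summed list overlapped, from 321 to 700 CPM in Lepr+ MPP and from 150 to 411 CPM in Lepr- MPP. In HSC it ranged from 133 to 556 CPM in Lepr+ and from 124 to 395 CPM in Lepr- libraries. The mural list was mixed. Rgs5, Acta2, Myh11, Tagln, Cnn1, Higd1b, Cspg4 and Des each averaged under 1 CPM in all groups and did not pass the filter. Notch3 and Mcam were tested: Notch3 averaged 7.48 ± 5.53 CPM in Lepr+ MPP, against 1.32 ± 1.16 CPM in Lepr- MPP, and was higher in 5 of 5 pairs (adjusted p = 0.93). Mcam averaged 2.52 ± 3.13 CPM in Lepr+ MPP, against 0.663 ± 1.24 CPM in Lepr- MPP (adjusted p = 1.0). Summed mural levels ranged from 3.65 to 21 CPM in Lepr+ MPP, against 0.279 to 3.82 CPM in Lepr- MPP, and from 1.75 to 9.5 CPM in Lepr+ HSC, against 0.171 to 5.94 CPM in Lepr- HSC. The part of mural cells in the members' levels was not tested. Of the fat cell list, Cidec and Lep were at 0 in all 20 libraries and Cfd was the 1 gene tested. Cfd had 121 read pairs in Lepr+ MPP, against 0 in Lepr- MPP, at least 42.3-fold higher (adjusted p = 0.317). In HSC it had 104 read pairs in Lepr+ libraries, against 0 in Lepr- libraries, at least 33.2-fold higher (adjusted p = 0.394). Fat cell sums ranged from 0.0979 to 12.3 CPM in Lepr+ MPP, against 0 to 0.0378 CPM in Lepr- MPP, and from 0 to 5.96 CPM in Lepr+ HSC, against 0 to 0.338 CPM in Lepr- HSC. Plin1, the lipid droplet gene, had 0, 0, 0.879 and 0.225 CPM in Lepr+ MPP replicates 2 to 5. All of its 81 read pairs in Lepr+ HSC lay in replicate 2 (4.16 CPM). Lists for Schwann cells (1 of 5 genes tested), neutrophils (3 of 6) and T or NK cells (1 of 5) had no gene called. Their summed medians were 4.27, 5.9 and 0.225 CPM in Lepr+ MPP and 3.52, 2.6 and 2.09 CPM in Lepr- MPP. In Lepr+ HSC their sums ranged from 0.257 to 18.4, 0.154 to 239 and 1.08 to 8.01 CPM. In Lepr- HSC they ranged from 0 to 29.7, 1.62 to 55.0 and 1.58 to 6.59 CPM. The neutrophil sum of 239 CPM lay in Lepr+ HSC replicate 3.

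**Figure D5:**
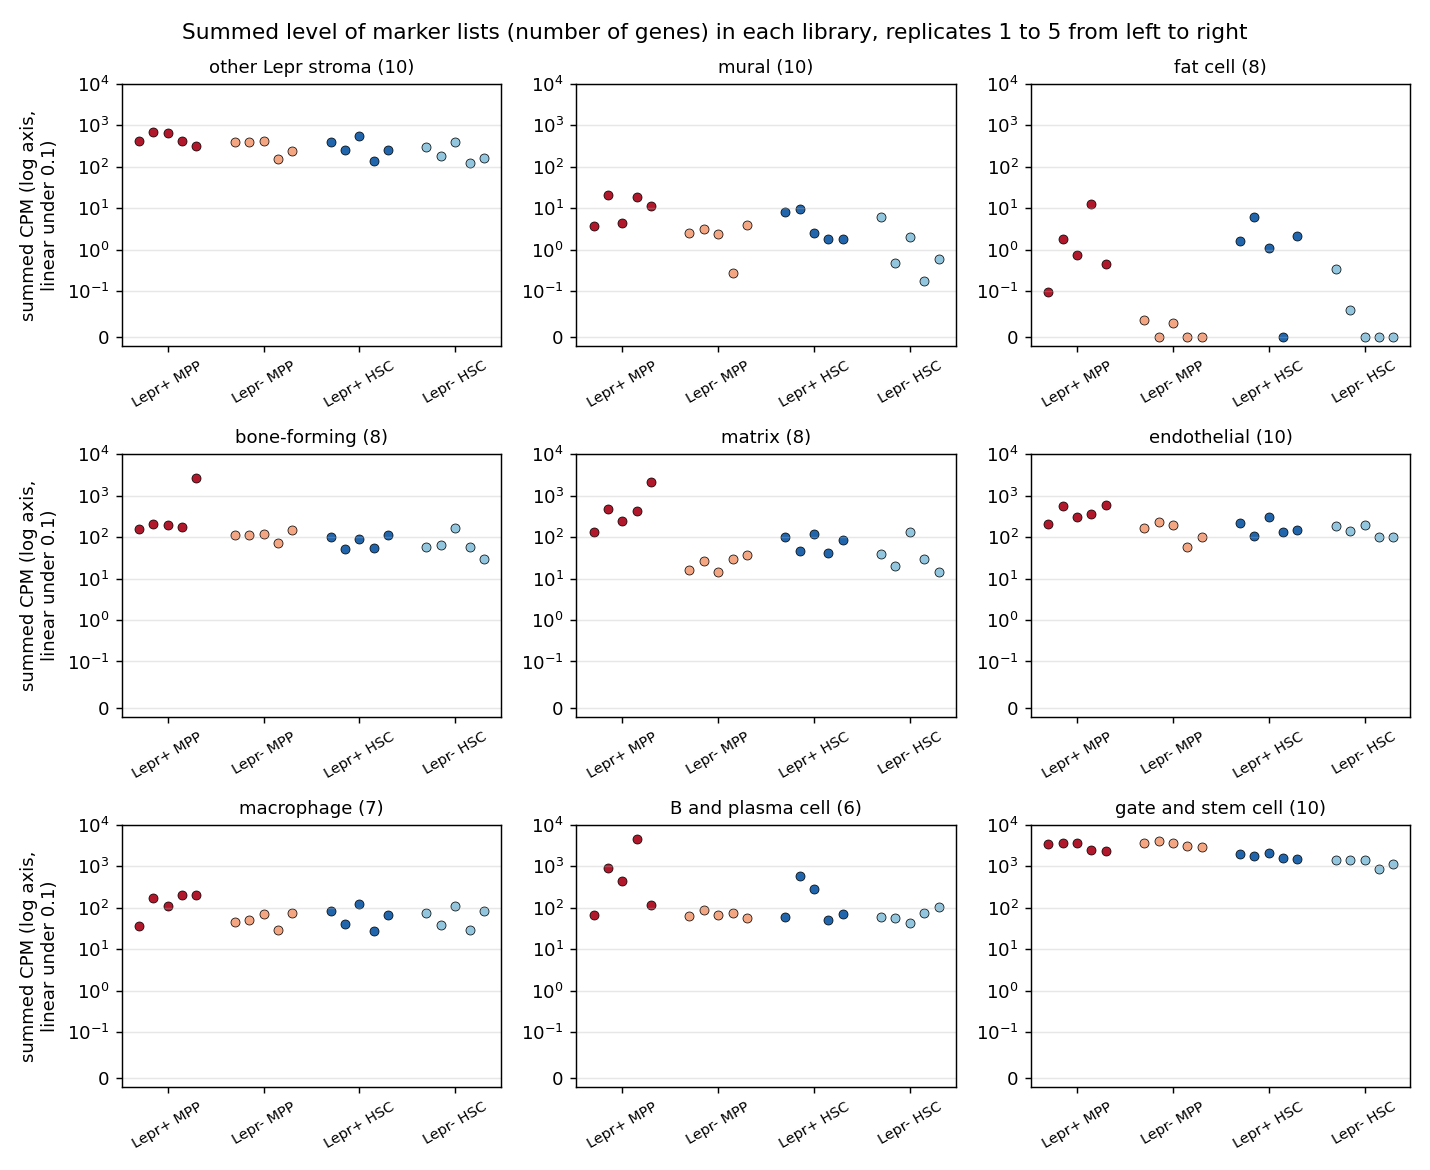
Summed CPM of 9 marker lists (vertical axis, logarithmic above 0.1 and linear below) in each library by group, replicates 1 to 5 from left to right, with the number of genes in brackets. Matrix genes are higher in all 5 Lepr+ MPP libraries (131 to 2080) than in Lepr- MPP (14.6 to 36), and the mural list reaches 21 and the fat cell list 12.3 in Lepr+ MPP.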

How the data were processed

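The deposited files held raw read-pair counts per Ensembl gene, 1 table for each of 20 libraries, and 5 lines at the end for unassigned read pairs (21.43% to 38.66% of a library) were left out. Per the submitters' processing notes, reads were handled with STAR 2.7.1a, HTSeq 0.11.2, cutadapt 2.1, FastQC 0.11.8 and DESeq2 on build GRCm38. Per the labels' protocols, cDNA came from SMART-Seq v4 and unstranded libraries from Nextera XT, so reads of overlapping genes on opposite strands cannot be told apart. How HTSeq was set is not given in the sources used here. One label speaks of RNA depleted of ribosomal RNA, a step the protocol does not describe. GENCODE M21 matched 55480 of 55573 gene identifiers, 55180 of them with the same version.

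Genes were filtered with filterByExpr (minimum count 10, minimum total 15), scaled by TMM and fitted in edgeR 4.0.16 with quasi-likelihood tests on all 20 libraries, group as the only term, and Benjamini-Hochberg adjustment over 16509 genes at a threshold of 0.05. DESeq2 1.42.0, limma 3.58.1 (voom), other scalings, no filter, a replicate block, single libraries left out and the months in the file names were alternatives. The fit was tested on simulated data. A fold against a group at 0 used a floor of 3 counts over the group, and one against 1 to 3 counts a count ratio with an exact 95% binomial interval, which covers counting error only. Likeness was Pearson's r on log2 CPM (prior count 2).

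The 10 members and the partner and marker lists were chosen with earlier results of these data known. All members and Lepr are named. Of each list, genes past the threshold and up to 4 more by smallest p or highest mean were to be named, together with the 10 genes most like the members. Further list genes in the text were chosen after their values were seen. A replicate number was read, from the series' design text, as 1 pool of 2 mice sorted into the 4 groups. Deviations from the group means correlated at a median of 0.264 (-0.0647 to 0.562) over 30 pairs of libraries with the same number, and of -0.0857 over 120 others. The SE of an edgeR log2 fold change is its absolute value over the square root of the F statistic of that contrast. For members in MPP no test is reported, and the SE is given as a description only.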

Additional observations from a re-analysis of the deposited data

Results flagged for a closer look

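Of 44 gene-by-group sets of 5 libraries examined, 12 held 1 library far from the other 4. Chance alone would single out about 1 set in 20 for normally spread values, a rate that does not apply where 4 libraries are at 0, so the number of sets is no measure of chance. The members Kitl, Igfbp5, Pdgfra and Ebf3 stood out in Lepr+ HSC replicate 3, with 1.33, 4.18, 2.35 and 0.667 CPM in that order. Kitl also stood out in Lepr- HSC replicate 3 (1.14 CPM). Lepr- HSC replicate 1 was highest of its group for Adipoq (0.0338 CPM, 1 read pair), Igfbp5 (0.135 CPM, 4 read pairs) and Pdgfra (0.405 CPM, 12 read pairs). Cxcl12 stood out in Lepr- HSC replicate 5 (8.16 CPM, 99 read pairs), a library with 2 Lepr read pairs. The remaining 3 values rested on 1 to 4 read pairs beside 0 in the other 4 libraries: Igfbp5 in Lepr- MPP replicate 1 (0.151 CPM), Chrdl1 in Lepr- MPP replicate 5 (0.0722 CPM) and Kcnj8 in Lepr- HSC replicate 4 (0.0857 CPM).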

How the results depend on the processing

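The count of members called in HSC was 0 in the edgeR fit, 0 with the replicate number, read as the pool of mice, as a block, 3 with DESeq2, and 0 to 1 with libraries left out (Chrdl1 without replicate 1 of every group). Members with groups apart in HSC numbered 0, or 3 in the July libraries (15.1% of all genes were apart there) and 0 to 1 with libraries left out (1 without Lepr+ HSC replicate 1 or Lepr- HSC replicate 5). The 6 members apart in MPP stayed within 6 to 8. For MPP over HSC, members apart numbered 0 among Lepr+ cells, 1 in June (4.77% of all genes), 9 in July (15.3%) and 0 to 9 with libraries left out (9 without Lepr+ MPP replicate 1, 2 or 1 when Lepr+ HSC lacked replicate 3 or 2). Among Lepr- cells the count was 1, and 2 in July (17.1% of all genes). The cause was not tested.

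List genes called in HSC numbered 3, with 8 in DESeq2 and 6 with the replicate block, all higher in Lepr+ HSC. Of all genes, these fits called 0.0969%, 0.909% and 0.763% higher there. The HSC count was 0 in June, 0 in July and 0 to 4 with libraries left out. List genes called in MPP numbered 7, with 29 in DESeq2 (28 higher, 1 lower) and 2 with the replicate block. Of all genes, these fits called 0.176%, 1.2% and 0.0909% higher in Lepr+ MPP. The MPP count was 0 in June and 0 in July. It was 0 without Lepr+ MPP replicates 4 and 5 and Lepr+ HSC replicate 5, and 0 to 8 with libraries left out. Separate months (June for replicates 1, 3 and 5, July for 2 and 4) hold fewer libraries.

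Signs turned for uncalled members in HSC. Kitl had a log2 fold change of 0.12 in June, 0.12 without those 3 libraries, and -5.71 to 1.49 with libraries left out. Lpl had -0.26 in limma voom, -0.01 in June and -0.67 to 0.59 with libraries left out. Pdgfra ranged from -0.20 to 6.66, and Pdgfrb was -0.54 in June. Over all settings, 216 of the members' HSC folds kept their sign and stayed uncalled, 17 turned and 4 gained a call. Of their MPP folds, 230 moved by less than the spread and 7 by more. Genes with 0 to 5 read pairs in a group, as 7 members were in Lepr- MPP, limit their folds to a bound or a wide interval.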
